A study of Mus musculus with 16 samples.

Results

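The transcripts described here code for the cohesin complex, for its loader and one of its release and maintenance factors, and for securin and separase, the inhibitor and the protease that end cohesion. The members were the rows of an FPKM table whose gene name was Rec8, Smc1b, Smc1a, Smc3, Stag3, Rad21, Pds5b, Nipbl, Espl1 or Pttg1, and 9 of these 10 names were found among 27987 gene names in 28618 entries. Rec8 was not found under that name or an older one, and it is not analysed here. FPKM (fragments per kilobase of transcript, scaled to the mapped fragments of the library) is a share of a library corrected for transcript length. Levels of different genes are set side by side on it below. It does not correct for how well each transcript was primed and copied, which was not measured, so such comparisons are approximate.

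RNA-seq was made from mouse oocytes of 4 groups with 4 libraries each, which the labels call biological replicates. The groups were fully grown oocytes at the germinal vesicle (GV) stage and ovulated eggs labelled as metaphase II (MII), each from wild-type (WT) and from Psma7 cKO females. Psma7 codes for an alpha subunit of the 20S proteasome, and in the cKO a floxed Psma7 allele (Psma7 fl/fl) was removed by Zp3-Cre, whose promoter is active in growing oocytes and not in the surrounding follicle cells, so the ovary around the oocyte keeps the gene. All females were 3 to 4 weeks old and received 5 IU of PMSG, and the GV oocytes were taken 44 h later. For eggs hCG followed after 44 h, and the eggs were taken from the oviduct 14 to 16 h after it and freed of cumulus cells with 0.3% hyaluronidase. The study reports that a part of the ovulated cKO oocytes stopped before MII. Whether the pooled cKO eggs included such cells was not tested here, so a genotype difference in eggs may also hold a difference in stage. Per the labels each library was made from 5 pooled oocytes, and no source used here says whether the pools of a group came from different females, so the p-values measure the spread between pools.

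Cohesin is a ring of 2 SMC proteins and a kleisin that holds sister chromatids together from replication until anaphase. The SMC pair is SMC3 with SMC1A, or in germ cells SMC1B, and the kleisin is RAD21 or, on meiotic chromosomes, REC8, with a STAG protein bound to it. NIPBL loads the ring, and PDS5 proteins regulate its release. Separase (Espl1) opens the ring by cutting the kleisin, and until anaphase it is held inactive by securin (Pttg1) and by cyclin B1 with CDK1. Securin is marked by the anaphase-promoting complex and destroyed by the proteasome. In mammalian oocytes the rings that hold the chromosomes are laid down before birth, long before the grown oocytes measured here. Whether the mRNA of the grown oocyte is translated was not measured.

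The cDNA was primed with oligo-dT at the poly(A) tail, so a transcript was counted only where its 3' end carried one, and the length of the tails was not measured. For each member a single coding transcript was taken from GENCODE release M21 (GRCm38, the build called mm10), the longest of the best annotation level. Some members have several, Pttg1 for example 7, and which 3' ends the oocytes used was not tested. The last 30 bases of the chosen transcript, next to the priming site if that end is used, are given 5' to 3'. The polyadenylation hexamer AATAAA is in capitals where it is present.
Smc1a: gggtttatctAATAAAtagagcctgaggaa
Smc1b: aaattggttataaaattttgaattctgcaa
Smc3: cattcatgtgccataaaatttacccatgta
Rad21: aaggtgagtttctgagcAATAAAagatttg
Stag3: ctttcAATAAAcatgttcagctatctcata
Pds5b: ctcatgtaattatatttttatgtgactcaa
Nipbl: tgcAATAAAtttttttacttctctttgtta
Pttg1: tatgtatgttgtattAATAAAgcatttgtg
Espl1: gtgaccttAATAAAgatattccaagcctca

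The hexamer AATAAA was read on the transcript strand in 6 of these 9 windows, beside 50.9% of 21697 coding transcripts of the same annotation. Smc1b, Smc3 and Pds5b lack those letters in this window. The letters TTTTAT, the DNA spelling of the main cytoplasmic polyadenylation element of maturing oocytes, were found in the last 100 bases of 1 of the 9, Pds5b, and in 12.8% of all transcripts. Exons of the 9 genes share 0 bases with exons of any other gene in this annotation, which matters because Smart-seq2 libraries do not record the strand.

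The libraries were checked first. Psma7 itself lay between 142 and 201 FPKM in WT GV oocytes and between 11.1 and 18.0 FPKM in cKO GV oocytes, and between 97.7 and 172 FPKM in WT eggs and 13.6 and 59.9 FPKM in cKO eggs, so it was lower in every cKO library. All 8 oocyte markers had a mean of at least 1 FPKM in every group, and of 12 cumulus and granulosa markers only Cyp19a1 and Kitl did, with 11.7 to 20.8 FPKM for the sum of the 12. Depth estimated from the steps between low values was 10.6 to 16.0 M fragments per library. The 4 cKO egg libraries differed from each other in how far stored mRNA had gone: of 397 transcripts that were over 10 times lower in WT eggs than in WT GV oocytes, 12.7%, 8.80%, 34.5% and 19.1% of the GV level was left in cKO replicates 1 to 4, beside 5.93% to 6.80% in the WT eggs by which these transcripts were chosen. The part of that spread in the egg results below was not tested.

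Pttg1 was by far the most abundant of the 9 transcripts in every group, and Stag3 the least. In WT GV oocytes the mean level was 646 ± 111 FPKM for Pttg1 (SD, n = 4), 30.3 ± 3.06 for Smc3, 14.9 ± 2.98 for Rad21, 13.0 ± 1.38 for Smc1a, 8.58 ± 1.89 for Espl1, 7.18 ± 0.874 for Nipbl, 6.32 ± 0.810 for Smc1b, 2.29 ± 0.505 for Pds5b and 1.94 ± 0.197 for Stag3. The ranges of 4 pairs of neighbours in this order overlapped, namely Rad21 with Smc1a, Espl1 with Nipbl, Nipbl with Smc1b, and Pds5b with Stag3. In WT eggs the order ran Pttg1, Smc3, Rad21, Nipbl, Smc1a, Smc1b, Espl1, Pds5b and Stag3, and only Smc1a and Smc1b overlapped. In cKO GV oocytes Smc1a stood above Rad21 (15.6 ± 1.34 and 12.6 ± 1.79 FPKM, overlapping), and in cKO eggs Smc1a stood above Nipbl (13.8 ± 1.67 and 11.4 ± 0.745 FPKM) with no overlap between any neighbours. Smc1b, whose protein is found only in germ cells, therefore had an FPKM near that of Smc1a in WT eggs.

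**Figure D1:**
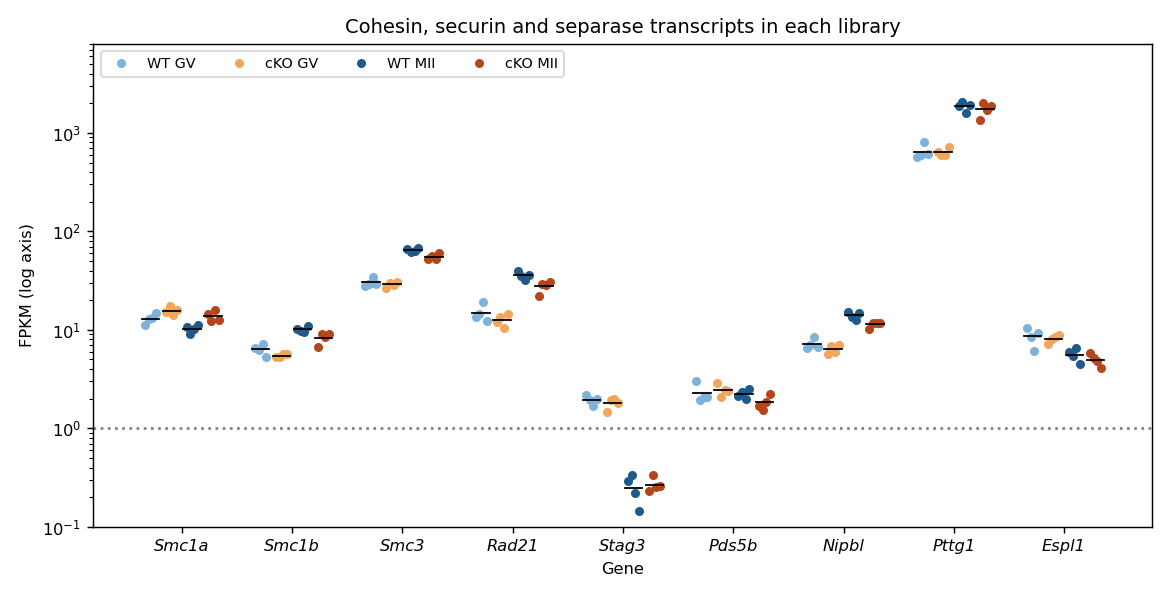
FPKM on a log axis for 9 transcripts, with 1 point per library (4 per group) and a black bar for each group mean. The dotted line is 1 FPKM, to which lower values were raised before testing. Pttg1 sits between 565 and 2067 FPKM, and Stag3 in the eggs lies between 0.145 and 0.333 FPKM. Within each genotype the points of Smc3, Rad21, Nipbl, Smc1b and Pttg1 in eggs stand above those in GV oocytes.

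Maturation of WT oocytes was compared first, MII eggs against GV oocytes. Pttg1, Rad21, Smc3, Nipbl and Smc1b rose and Stag3, Espl1 and Smc1a fell, so that 8 of the 9 members passed an adjusted p of 0.05 in limma, 5 of them upwards. Stag3 entered this count only because its GV values met the filter, as set out below. Of all 10475 transcripts tested 78.5% passed, 26.1% upwards and 52.4% downwards. The 4 GV and 4 egg values did not overlap for 7 of the 9 members, beside 72.7% of all transcripts. The median log2 fold change was 0.69 over the members and -0.44 over all transcripts tested. FPKM is a share of a library, on which more of a transcript per oocyte and less of the other mRNA cannot be told apart. Because priming was at the poly(A) tail, a change in the tails of a transcript cannot be told from a change in its amount either. After rescaling the libraries by their median ratios, the median over all transcripts was 0.04 and the calls over all transcripts became 4223 higher and 4167 lower in place of 2738 and 5486. This rescaling treats the middle transcript as unchanged between libraries, so that median follows from the method. Whether the middle transcript did stay unchanged per oocyte was not tested.

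The ring subunits other than Smc1a all rose. Smc3 (chr19:53600398-53645833, plus strand), the SMC shared by every cohesin, was at 27.8, 29.5, 34.7 and 29.2 FPKM in the WT GV libraries and at 65.8, 61.6, 62.6 and 67.3 FPKM in the WT eggs. The groups are far apart, 2.12-fold on the means, with a log2 fold change of 1.09 ± 0.09 (SE, adjusted p = 7.14e-07 by limma). Rad21 (chr15:51962240-51991747, minus strand), the kleisin of mitotic cohesin, went from 13.5, 14.5, 19.1 and 12.2 FPKM to 39.2, 35.4, 32.2 and 35.9 FPKM. Every egg library lay above every GV library, with a log2 fold change of 1.28 ± 0.13 and an adjusted p of 5.91e-06 by limma. Smc1b (chr15:85064689-85131964, minus strand), the germ-cell SMC1, was at 6.54, 6.18, 7.26 and 5.31 FPKM in GV oocytes and at 10.2, 9.77, 9.54 and 11.0 FPKM in eggs. Its change was smaller than that of its partner Smc3, 0.69 ± 0.12 on the log2 scale (adjusted p = 3.00e-04 by limma).

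Smc1a (chrX:152016428-152062694, plus strand), the general SMC1, moved the other way as a share of the library. The WT GV libraries held 11.3, 13.0, 13.1 and 14.7 FPKM and the WT eggs 10.7, 9.15, 10.1 and 11.1 FPKM, so the ranges just did not meet. Its log2 fold change of -0.34 ± 0.11 (adjusted p = 0.0157 by limma) lay close to the median of all transcripts, 0.10 above it, turned to 0.12 (adjusted p = 0.365 by limma) under the median-ratio rescaling, and was no longer past the threshold without WT GV replicate 4 (adjusted p = 0.0512) or WT MII replicate 2 (adjusted p = 0.0517).

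Stag3 (chr5:138280240-138312393, plus strand), the STAG subunit of meiotic cohesin, was the member that fell furthest. It was at 2.17, 1.92, 1.69 and 1.98 FPKM in WT GV oocytes and at 0.291, 0.333, 0.222 and 0.145 FPKM in WT eggs, or 12.8% of the GV mean. The egg values rest on an estimated 8 to 21 fragments a library. It met the mean filter of 1 FPKM only through its GV libraries, and every egg value was then raised to 1. On that scale the eggs had no spread, and the log2 fold change was -0.95 ± 0.12. Its adjusted p of 2.82e-05 by limma follows from this filter and floor and is not used as support for the fall. With a floor of 0.1 FPKM the log2 fold change was -3.03 ± 0.31. Under the rescaling and under a mean filter of 5 FPKM it was not tested.

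Nipbl (chr15:8290617-8444463, minus strand), the loader, rose with the ring subunits, from 6.51, 7.01, 8.45 and 6.74 FPKM to 15.4, 13.5, 12.6 and 14.8 FPKM. The groups did not overlap and the log2 fold change was 0.97 ± 0.12 (adjusted p = 1.78e-05 by limma). Pds5b (chr5:150673739-150810690, plus strand) was the member without a call: 3.04, 1.95, 2.09 and 2.06 FPKM in GV oocytes and 2.14, 2.36, 1.98 and 2.52 FPKM in eggs. These values overlap across most of their range, with a log2 fold change of -0.01 ± 0.16 (adjusted p = 0.971 by limma), which became 0.46 (adjusted p = 0.0206) under the rescaling.

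Pttg1 and Espl1 moved apart. Pttg1 (chr11:43420250-43426251, minus strand), coding for securin, was at 565, 593, 810 and 618 FPKM in WT GV oocytes and at 1883, 2067, 1608 and 1909 FPKM in WT eggs. This 2.89-fold rise was the largest rise among the members, 1.54 ± 0.12 on the log2 scale (adjusted p = 6.89e-07 by limma), above 98.7% of the transcripts tested. Espl1 (chr15:102296266-102324357, plus strand), coding for separase, was at 10.5, 8.48, 6.04 and 9.28 FPKM in GV oocytes and at 5.91, 5.38, 6.57 and 4.45 FPKM in eggs. WT GV replicate 3, the lowest of its group, lay inside the range of the eggs. The fall of 0.61 on the log2 scale (SE 0.18, adjusted p = 0.0106 by limma) was 0.16 below the median of all transcripts, and under the rescaling the log2 fold change of -0.14 did not pass (adjusted p = 0.440).

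The same comparison in cKO oocytes again gave 8 of 9 members past the threshold, 5 that rose and 3 that fell, beside 74.0% of 10748 transcripts tested (23.0% higher and 51.0% lower, or 3809 higher and 4044 lower in number after the rescaling). The log2 fold change was 1.44 ± 0.13 for Pttg1 (adjusted p = 1.25e-05 by limma), 1.13 ± 0.14 for Rad21, 0.93 ± 0.09 for Smc3, 0.84 ± 0.11 for Nipbl and 0.60 ± 0.13 for Smc1b. These 5 rose in WT too. Ranges of 7 of the 9 members did not overlap between the stages, beside 68.6% of all transcripts. Stag3 fell by 0.84 on the floored scale, from 1.48, 1.92, 2.00 and 1.79 FPKM to 0.231, 0.332, 0.252 and 0.258 FPKM. As in WT, it met the filter only through its GV libraries and all its egg values were raised to the floor, so its call is not used as support. Espl1 fell by 0.72 (adjusted p = 0.00127 by limma), from 7.16, 8.16, 8.48 and 8.87 FPKM to 5.88, 5.18, 4.86 and 4.05 FPKM. Here the Espl1 groups did not overlap, and under the rescaling its log2 fold change was -0.32 (adjusted p = 0.0658).

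The call that was lost and the call that was gained between the genotypes were both weak. Smc1a was at 15.1, 17.3, 14.2 and 16.0 FPKM in cKO GV oocytes and at 14.4, 12.3, 15.8 and 12.6 FPKM in cKO eggs, overlapping, with a log2 fold change of -0.19 ± 0.12 (adjusted p = 0.166 by limma) that became 0.21 under the rescaling and passed under sample quality weights (-0.28, adjusted p = 0.0427). Pds5b fell by 0.43 (SE 0.15, adjusted p = 0.0281 by limma) from 2.91, 2.09, 2.47 and 2.39 FPKM to 1.70, 1.55, 1.84 and 2.23 FPKM. The ranges of Pds5b overlapped, its change was close to the median of all transcripts, -0.42, and its call was lost under the rescaling (adjusted p = 0.859), under sample quality weights (0.0580), and without cKO GV replicate 1 (0.0695) or 3 (0.0551) or cKO MII replicate 1 (0.0629) or 2 (0.0824). No difference between the genotypes in how a member changed was called: 0 of 9 members passed for the genotype by stage interaction, beside 1.26% of 10615 transcripts tested (134, or 41 to 651 with a library left out, the latter without cKO MII replicate 2), and 0 of 9 had an unadjusted p under 0.05, beside 17.7% of all. For Stag3 this could not show a difference in maturation, because all its egg values were raised to the floor. Its interaction of 0.11 is the GV difference between genotypes, -0.11, with the sign turned. With a floor of 0.1 FPKM it was 0.28. The largest interaction, that of Pds5b, was -0.43 ± 0.23 (adjusted p = 0.350 by limma). The comparisons of stages and of genotypes share libraries, so they are not independent of each other.

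**Figure D2:**
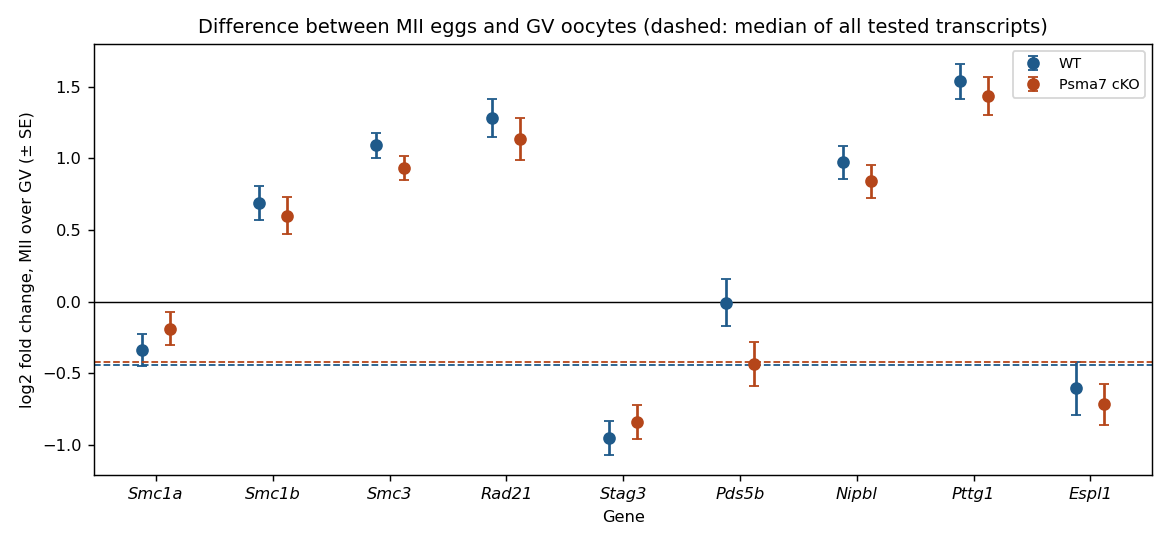
Log2 fold change of MII eggs over GV oocytes from limma, with 1 point per gene for WT and 1 for Psma7 cKO and bars of 1 SE. The dashed lines mark the median of all tested transcripts, -0.44 in WT and -0.42 in cKO. Pttg1, Rad21, Smc3, Nipbl and Smc1b lie above 0 in both genotypes. The egg values of Stag3 were all raised to 1 FPKM. After rescaling to the median ratio, Smc1a in both genotypes and Pds5b in WT turn above 0, and Stag3 is not tested.

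In GV oocytes the genotypes were compared to ask whether the stored transcripts differed before maturation. No member was called: 0 of 9 passed the adjusted threshold in limma, beside 0.118% of the 11062 transcripts tested, and the ranges of all 9 overlapped, where 6.67% of all transcripts had ranges that did not. Smc1a alone had an unadjusted p under 0.05, against 10.7% of all transcripts. It was at 11.3, 13.0, 13.1 and 14.7 FPKM in WT and at 15.1, 17.3, 14.2 and 16.0 FPKM in cKO, a log2 fold change of 0.27 ± 0.11 (adjusted p = 0.430 by limma). A single WT library reached into the cKO range.

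The other members differed less or with more spread. The kleisin Rad21 was at 14.9 ± 2.98 FPKM in WT and at 12.1, 13.4, 10.4 and 14.5 FPKM in cKO (log2 fold change -0.23 ± 0.16). Smc1b was at 5.25, 5.24, 5.69 and 5.62 FPKM in cKO GV oocytes, within the WT range of 5.31 to 7.26 FPKM except for the 2 lowest (-0.21 ± 0.13). The loader Nipbl gave -0.17 ± 0.13, Stag3 -0.11 ± 0.15, Pds5b 0.12 ± 0.18 and Smc3 -0.06 ± 0.10. Securin and separase were nearly level between the genotypes at this stage. Pttg1 was at 636, 590, 599 and 724 FPKM in cKO, with a log2 fold change of -0.01 ± 0.12, and Espl1 gave -0.05 ± 0.17.

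In MII eggs the cKO libraries held more Smc1a and less of the other ring subunits than the WT libraries, but these differences did not pass the test. Of the 8 members tested, 0 passed the adjusted threshold in limma, beside 8.02% of 9492 transcripts (6.53% higher and 1.49% lower). That background of 761 calls rests on single libraries: it was 12, 114, 3 and 39 without WT MII replicates 1 to 4, and 197, 1160, 317 and 418 without cKO MII replicates 1 to 4. At an unadjusted p under 0.05 there were 5 of 8, beside 29.4% of all transcripts. The median log2 fold change of the 8 was -0.26, and that of all transcripts 0.07. Stag3, whose mean was under 1 FPKM in eggs, was not tested.

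Smc1a was at 10.7, 9.15, 10.1 and 11.1 FPKM in WT eggs and at 14.4, 12.3, 15.8 and 12.6 FPKM in cKO eggs. Every cKO library lay above every WT library, which held for 13.6% of all transcripts tested, and the log2 fold change was 0.42 ± 0.11 (adjusted p = 0.0508 by limma). This value is next to the threshold: it passed with all 16 libraries in a single fit (0.0172), with a mean filter of 5 FPKM (0.0403), with a floor of 0.1 FPKM (0.0492) and without cKO MII replicate 2 (0.0385), and its adjusted p rose to 0.0933 after the rescaling. The 4 cKO egg libraries together held 1.34 times the WT mean of Smc1a.

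For 4 members every cKO egg library lay below every WT egg library, which held for 7.06% of all transcripts tested. Rad21 was at 39.2, 35.4, 32.2 and 35.9 FPKM in WT eggs and at 22.0, 29.1, 28.9 and 30.9 FPKM in cKO eggs, a log2 fold change of -0.37 ± 0.12 (adjusted p = 0.0751 by limma). Replicate 1 was the lowest cKO library, and without it the log2 fold change was -0.26. Nipbl was at 10.3, 11.8, 11.8 and 11.7 FPKM in cKO eggs, beneath a WT range of 12.6 to 15.4 FPKM (-0.30 ± 0.10, adjusted p = 0.0781 by limma).

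Smc3 was at 52.1, 56.2, 52.7 and 60.4 FPKM in cKO eggs and at 61.6 to 67.3 FPKM in WT eggs (-0.22 ± 0.07, adjusted p = 0.0791 by limma). The highest cKO value was just under the lowest WT value. Smc1b was at 6.68, 9.05, 8.41 and 9.11 FPKM in cKO eggs and at 9.54 to 11.0 FPKM in WT eggs (-0.30 ± 0.12, adjusted p = 0.140 by limma), and without cKO MII replicate 1 the log2 fold change was -0.19. After the rescaling, which changed the calls over all transcripts from 620 higher and 141 lower to 501 higher and 332 lower, Rad21 (-0.49) and Nipbl (-0.42) passed, each with an adjusted p of 0.0496, while Smc3 (0.0588) and Smc1b (0.0829) did not.

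Pds5b, Espl1 and Pttg1 overlapped between the genotypes in eggs. Pds5b gave a log2 fold change of -0.30 ± 0.15 (adjusted p = 0.221 by limma). Espl1 was at 5.91, 5.38, 6.57 and 4.45 FPKM in WT eggs and at 5.88, 5.18, 4.86 and 4.05 FPKM in cKO eggs (-0.16 ± 0.16, adjusted p = 0.542). Pttg1 was at 1356, 2006, 1707 and 1875 FPKM in cKO eggs, with replicate 1 below the WT range of 1608 to 2067 FPKM and the other 3 inside it (-0.11 ± 0.13, adjusted p = 0.589). Stag3 was at 0.231 to 0.332 FPKM in cKO eggs and at 0.145 to 0.333 FPKM in WT eggs, overlapping and not tested.

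Because Smc1a and Smc1b are alternative partners of Smc3, their ratio was taken within each library, where a scaling of the whole library cancels. In WT, Smc1b made up 36.6%, 32.3%, 35.7% and 26.5% of the summed FPKM of both transcripts in GV oocytes and 49.0%, 51.6%, 48.5% and 49.7% in eggs. The share was therefore higher in every egg library, and its spread was narrow in eggs (49.7% ± 1.37, SD, n = 4). In the cKO it was 25.8%, 23.2%, 28.6% and 26.0% in GV oocytes and 31.7%, 42.5%, 34.7% and 42.0% in eggs (37.7% ± 5.37). No cKO egg library reached the WT eggs.

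The log2 ratio of Smc1b to Smc1a was 0.71 lower in cKO than in WT eggs, -0.73 ± 0.33 against -0.02 ± 0.08 (SD, n = 4 and 4, exact two-sided permutation test p = 0.0286, adjusted p = 0.0457 over 8 such tests). In GV oocytes it was 0.47 lower in cKO, -1.52 ± 0.17 against -1.04 ± 0.31, with overlapping ranges, and did not pass (exact p = 0.0571, adjusted p = 0.0762). Between stages the ratio rose by 1.03 in WT and by 0.79 in the cKO, with an exact p of 0.0286 and an adjusted p of 0.0457 in each genotype. The p of 0.0286 is the smallest that 4 against 4 libraries can give. With 3 against 4 libraries none can be under 0.0571, so no result of this kind passes when a library is left out. The comparisons of stages among the 8 tests all had this smallest p too. The adjusted p of the egg comparison therefore depends on counting them in the same family. How often other pairs of transcripts differ as much was not tested. Without any single library the difference between cKO and WT eggs ranged from -0.81 to -0.59. The cKO egg libraries with the larger shares of Smc1b, replicates 2 and 4, had 8.80% and 19.1% of the decaying transcripts left, and those with the smaller shares, replicates 1 and 3, had 12.7% and 34.5%. The part of this in the ratio was not tested.

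As a share of the library, the summed level of both SMC1 transcripts was close to constant over the groups. It was 19.3 ± 1.10 FPKM in WT GV oocytes, 21.1 ± 1.22 in cKO GV oocytes, 20.4 ± 1.42 in WT eggs and 22.1 ± 1.47 in cKO eggs (SD, n = 4). Set against this sum, Smc3 was present at 1.57 ± 0.106 and 1.38 ± 0.0593 times its level in WT and cKO GV oocytes, and at 3.16 ± 0.0912 and 2.52 ± 0.264 times in WT and cKO eggs. The WT eggs lay between 3.04 and 3.26 and the cKO eggs between 2.17 and 2.79. The sum and this second ratio were chosen after the values were seen and have no test. The sum, unlike the ratio, depends on the scaling of libraries. The median-ratio factors were 1.09 to 1.21 in WT GV and 0.818 to 0.852 in WT egg libraries. In the cKO they were 1.18 to 1.21 and 0.859 to 0.981. Divided by these factors, the sum is higher in eggs than in GV oocytes of both genotypes.

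Securin transcript per separase transcript rose at maturation in both genotypes. Pttg1 stood at 53.7, 69.9, 134 and 66.5 times the FPKM of Espl1 in WT GV oocytes and at 318, 384, 245 and 429 times in WT eggs. The cKO libraries gave 88.8, 72.3, 70.6 and 81.6 in GV oocytes and 230, 387, 351 and 462 in eggs. The groups of a stage overlap and the stages do not. On the log2 scale the ratio was 2.14 higher in WT eggs than in WT GV oocytes and 2.15 higher in the cKO (exact two-sided permutation p = 0.0286 and adjusted p = 0.0457 in each), and the difference between these rises was not tested. Between genotypes it differed by 0.04 in GV oocytes and by 0.04 in eggs (exact p = 0.857 in each), and when any single library was left out the difference ranged from -0.13 to 0.31 in GV oocytes and from -0.11 to 0.24 in eggs. WT GV replicate 3, with the highest Pttg1 and the lowest Espl1 of its group, carries most of the spread in GV oocytes.

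**Figure D3:**
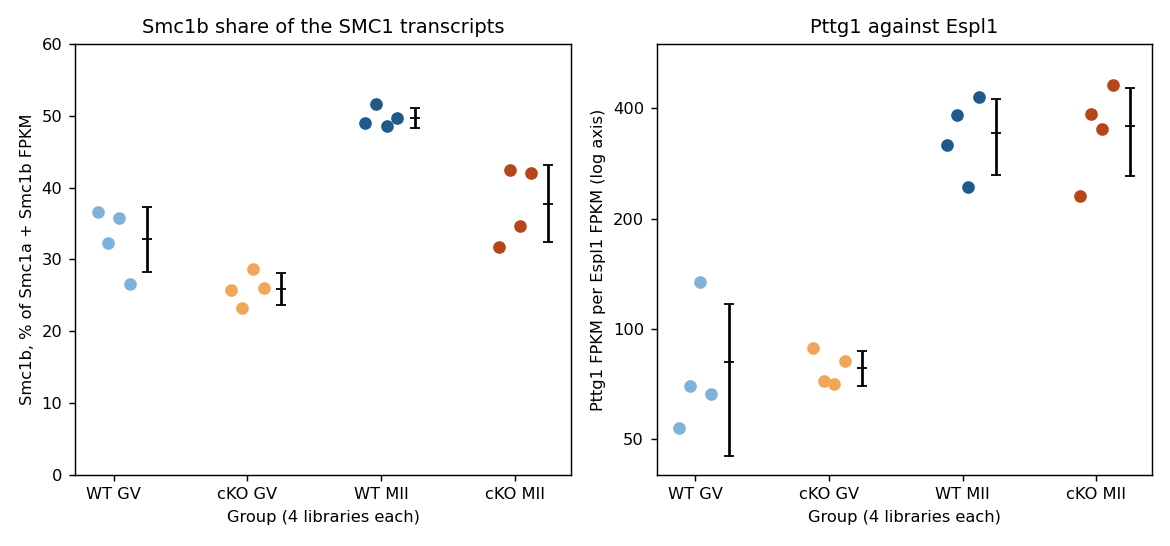
Left, Smc1b as a percentage of the summed FPKM of Smc1a and Smc1b in each library. Right, Pttg1 FPKM per Espl1 FPKM on a log axis. Points are libraries (4 per group) and the bar beside them is the mean ± SD. The Smc1b share is 48.5% to 51.6% in WT eggs and 31.7% to 42.5% in cKO eggs, and the Pttg1 to Espl1 ratio overlaps between genotypes at each stage.

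Other genes that act on cohesin were read from a list of 18 regulators (other STAG, kleisin and PDS5 subunits, the release factor Wapl, the loader partner Mau2, sororin, acetyltransferases, shugoshins and their phosphatase subunits) and a list of 5 axis genes (Sycp1 to Sycp3, Hormad1 and Hormad2). Between genotypes in GV oocytes 0 of 17 regulators and 0 of 4 axis genes tested passed the adjusted threshold in limma, beside the 0.118% of all transcripts given above, and the medians of the lists were 0.02 and -0.14. At an unadjusted p under 0.05, which 10.7% of all transcripts had, there was 1 of the 17 regulators, Sgol1 (Sgo1, shugoshin), with a log2 fold change of -0.23, and 2 of the 4 axis genes, Sycp1 (-0.30) and Hormad2 (0.42). In eggs 0 of 16 regulators and 1 of 5 axis genes passed, beside 8.02%, with list medians of -0.16 and -0.23. At an unadjusted p under 0.05 there were 5 of the 16 regulators, a share near the 29.4% of all transcripts, and 2 of the 5 axis genes, Sycp2 and Hormad2, the latter with a log2 fold change of 0.47. The 5 regulators were Stag2 (-0.31), Sgol2a (-0.24), Esco2 (-0.23), Esco1 (-0.22) and Cdca5 (0.54).

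The axis gene that passed was Sycp2, which codes for a lateral element protein of the synaptonemal complex. It was at 49.4, 44.0, 51.2 and 50.7 FPKM in WT eggs and at 33.2, 33.1, 31.3 and 44.3 FPKM in cKO eggs. The log2 fold change was -0.47 ± 0.11 (adjusted p = 0.0411 by limma), and cKO replicate 4 alone lay within the WT range. The call was lost under 10 of 18 alternatives, among them leaving out each of the WT replicates 1 to 4 or the cKO replicates 1 to 3, where the adjusted p lay between 0.0566 and 0.114, and its interaction with stage was -0.50 (adjusted p = 0.124 by limma).

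At maturation of WT oocytes 8 of 16 regulators tested rose and 5 fell, and 3 of 4 axis genes rose and 1 fell, beside 26.1% and 52.4% of all transcripts. Wapl, which releases cohesin from chromosomes, went from 39.6 ± 9.99 to 95.0 ± 10.8 FPKM (SD, n = 4), a log2 fold change of 1.29. The acetyltransferase Esco1 rose by 1.20 and Sycp2 by 1.05. The regulator that fell furthest was Meikin, which with shugoshin protects centromeric cohesin in meiosis I, from 22.3 ± 2.89 to 2.85 ± 0.462 FPKM, a log2 fold change of -2.97. Cdca5, coding for sororin, the antagonist of WAPL, fell from 143 ± 4.16 to 36.5 ± 3.71 FPKM (-1.97), and Ppp2r5d, coding for a B56 subunit of protein phosphatase 2A, gave -1.40. These 6 passed limma with adjusted p-values between 6.54e-09 and 2.52e-05, and kept their sign under the rescaling.

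The cKO gave a like picture, with 7 of 16 regulators that rose and 5 that fell, and 3 of 5 axis genes that rose and 1 that fell, beside 23.0% and 51.0%. Its highest were Wapl (1.33), Esco1 (1.18) and Sycp3 (0.94, adjusted p = 0.0411 by limma, lost under 8 of 17 alternatives), and its lowest Meikin (-2.58), Cdca5 (-1.42) and Ppp2r5d (-1.38). Meikin was left at 3.09, 2.02, 7.52 and 4.51 FPKM in the cKO eggs and Cdca5 at 47.5, 41.4, 66.7 and 60.6 FPKM, both highest in replicate 3, the library with the most decaying mRNA left. The part of that in these values was not tested. None of the regulators or axis genes passed for the interaction, 0 of 16 and 0 of 4 tested in limma, beside 1.26% of all transcripts. At an unadjusted p under 0.05 there were 1 of the 16 regulators, Cdca5 (0.56, adjusted p = 0.120), and 1 of the 4 axis genes, Sycp2, beside 17.7% of all transcripts.

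**Figure D4:**
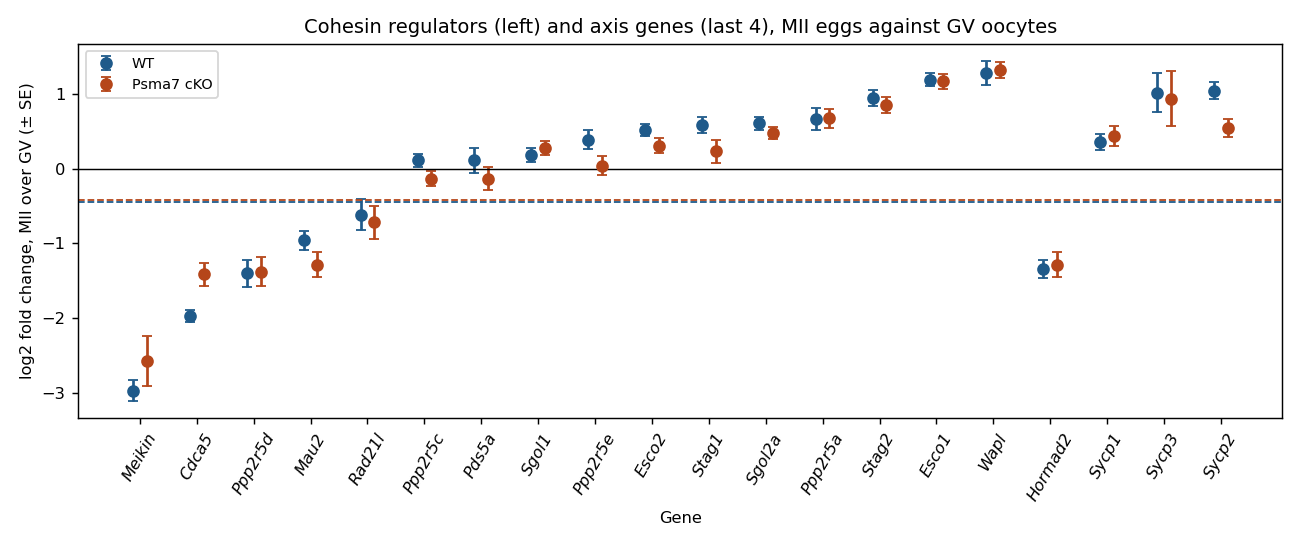
Log2 fold change of MII eggs over GV oocytes from limma for 16 cohesin regulators and, as the last 4, axis genes, in the order of the WT value within each list. Blue is WT and orange is Psma7 cKO, bars are 1 SE, and the dashed lines mark the median of all tested transcripts. Wapl and Esco1 are the highest regulators and Meikin and Cdca5 the lowest in both genotypes.

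For Pttg1 and Espl1 the transcripts most alike in pattern were sought by Pearson's r of log2 FPKM over the 16 libraries, among 10614 other transcripts. Nearest to Pttg1 were Dpy30 (r = 0.992), 2810408I11Rik (0.991) and Mgst3 (0.991), of which Dpy30 had means of 124 FPKM in WT GV oocytes and 414 FPKM in WT eggs. Nearest to Espl1 were 4930402H24Rik (0.966), Zfp541 (0.965) and Icmt (0.963), with Zfp541 at 6.85 and 4.13 FPKM. All points share the step between stages, so these values describe the pattern and carry no test.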

How the data were processed

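RNA-seq libraries of 5 pooled oocytes (10 in the study's methods text, a difference not resolved here) followed the Smart-seq2 protocol, primed with oligo-dT. The authors deposited FPKM values from Cufflinks 2.2.1 after alignment with TopHat2 2.1.1 to mm10, per the submitters' processing notes, and the annotation is not given in the sources used here. The table holds 0 ERCC rows, so no spike-in scaling was made, and entries were kept apart (579 names have several). Values under 1 FPKM were raised to 1, log2 transformed, restricted to entries averaging 1 FPKM or more in the libraries of a comparison, and fitted with limma 3.58.1 in R 4.3.3 (intensity trend, Benjamini-Hochberg over all transcripts tested, threshold 0.05). Fits held only the 8 libraries compared, or all 16 for the interaction. Fold changes understate those of low transcripts. Ratios within a library used exact two-sided permutation tests over libraries (scipy 1.17.1), adjusted over 8 tests, and the Rec8 ratio could not be made. Scripts were tested on simulated data.

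The members, gene lists and tests were chosen with earlier results of these data known. Named from the lists were the genes past the threshold between genotypes and, in each maturation comparison, the 3 highest and 3 lowest past it. List genes given at an unadjusted p were named outside this rule, after their values were seen. Members were compared in every group. Alternatives are given in the closing section. Positions and 3' ends come from GENCODE M21 by symbol, matched for 9 of 9 members.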

Additional observations from a re-analysis of the deposited data

Results flagged for a closer look

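Of 44 sets of 4 libraries (9 transcripts and 2 ratios in 4 groups), 2 held a library far from the other 3 by Dixon's test, and chance alone flags about 1 set in 20. Nipbl in cKO MII replicate 1 was at 10.3 FPKM, below the 11.7 to 11.8 FPKM of the other cKO eggs. Pds5b in WT GV replicate 1 was at 3.04 FPKM, above the 1.95 to 2.09 FPKM of the other WT GV oocytes, and without that library the log2 fold change of Pds5b at maturation was 0.14.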

How the results depend on the processing

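The count of members past the threshold stayed at 0 between genotypes in GV oocytes and for the interaction under every alternative run. At WT maturation it was 6 to 8, not always of the same members. The main counts of 8 at maturation include Stag3, which met the filter through its GV values alone. After rescaling the 6 that passed were all higher and included Pds5b, Smc1a and Espl1 no longer passed, and Stag3 was not tested. In eggs the count of 0 became 1 with a floor of 0.1 FPKM, with a mean of at least 5 FPKM, with all 16 libraries in 1 fit and without cKO MII replicate 2 (Smc1a each time; range 0 to 1 over the libraries left out), and 2 after median-ratio rescaling (Rad21 and Nipbl). At cKO maturation the count of 8 became 5 after rescaling, where Stag3 was not tested, and was 6 to 8 with a library left out. Stag3 also gave no value in eggs, with a mean of at least 5 FPKM or without some GV libraries. No member passed a 3-fold difference of group means between genotypes.

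Rescaling turned Smc1a at maturation to 0.12 in WT and 0.21 in cKO, and Pds5b in WT to 0.46 (0.018 under sample quality weights). Sample quality weights gave 0.033 for Pttg1 and 0.00014 for Smc3 between genotypes in GV oocytes. With a library left out, values near 0 crossed it: Pds5b at WT maturation (-0.075 to 0.14), between genotypes in GV oocytes Espl1 (-0.21 to 0.061), Pttg1 (-0.074 to 0.10) and Smc3 (-0.10 to 0.0076), and for the interaction Espl1 (-0.22 to 0.048), Pttg1 (-0.22 to 0.011) and Smc1b (-0.16 to 0.012). The cause was not tested.

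Ratios with a library left out cannot pass (smallest exact p 0.0571). The Pttg1 to Espl1 ratio then changed by 1.98 to 2.42 at WT and 2.02 to 2.35 at cKO maturation, and by -0.13 to 0.31 and -0.11 to 0.24 between genotypes in GV oocytes and eggs. Smc1b to Smc1a changed by 0.89 to 1.11 and 0.69 to 0.91 at maturation, and by -0.81 to -0.59 between genotypes in eggs. Other floors changed no ratio's side of the threshold.

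A replicate block on the shared replicate numbers left the members' counts at 0 in GV oocytes, 0 in eggs, 8, 8 and 0 for the interaction, and cut the calls over all transcripts in eggs from 761 to 108. With a library left out those calls were 3 to 1160 in eggs, 5 to 19 in GV oocytes (13 with all) and 41 to 651 for the interaction (134 with all). Deviations from the group means of libraries sharing a number correlated by -0.496 to 0.285, and in 1 of 16 checks a library correlated best with its own number, so the numbers were not taken as pairs. Of 1066 values for single genes under an alternative, 1012 kept direction and side, 28 lost the call, 7 gained it and 19 changed sign. Libraries of 5 oocytes and 10.6 to 16.0 M fragments limit Stag3 in eggs, at an estimated 8 to 21 fragments.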
